A study of Mus musculus with 12 samples.

Results

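The transcriptional response of wild-type (WT) splenic dendritic cells (DCs) to lipopolysaccharide (LPS) given together with an agonistic antibody against CD40 was read from 6 of the 12 arrays of the study, 3 treated and 3 untreated, chosen by their labels. WT mice were heterozygous littermates of alymphoplasia (aly) mice, so treated and untreated WT animals shared a genotype that is not free of the aly allele. Treated mice were injected intraperitoneally with LPS (25 micrograms) plus the anti-CD40 antibody (100 micrograms), and their DCs were isolated 6 hours later, whereas reference mice were left untreated. LPS and antibody were always given together and no vehicle or control antibody is named, so the parts of each agent and of the injection cannot be told apart. For every array the DCs of 3 mice were combined, after enrichment with CD11c beads and a further flow-cytometric sort. A p-value given here thus reflects how far such pools differ, not how far single mice do. The age of the mice is not given in the sources used here.

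DCs sample antigen and, when Toll-like receptors or CD40 are engaged, stop sampling, carry antigen to T cell zones and present it with costimulatory molecules and cytokines. LPS acts through Toll-like receptor 4, which activates NF-kB and, by way of type I interferon, a large antiviral gene program, and CD40 is the receptor through which T cells license DCs. The induction of interferon-stimulated, costimulatory, cytokine and NF-kB genes is the best-known side of this change. In these arrays 74 of 84 measured genes of a list of such best-known genes were called higher and 4 lower (median log2 change 3.24). Of the 74, 3 had passed a filter on low values through the treated arrays alone and so had to differ. The description below turns to the functions beyond the best-known genes.

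Among 12791 genes tested, 3038 were called changed, which is 23.8% (limma with Benjamini-Hochberg adjustment over all genes, adjusted p under 0.05). Of all genes tested, 9.71% (1242 genes) were called higher and 14% (1796 genes) lower. Counts of list members given below are to be read against these shares. The 3 treated and 3 untreated arrays did not overlap for 41% of all genes tested, so a lack of overlap alone is common here. It held for 2998 of the 3038 genes called, and so adds little to a call. Changes are given as log2 differences of the deposited signal plus 16, each with its standard error (3 arrays in either group). This offset understates the change of dim genes, and 168 of the genes called higher had an untreated mean under 16. The median log2 change over all genes was -0.15. After centring on the median of the tested genes instead, an alternative chosen after seeing the data, 58.6% of the calls were higher, against 40.9% as deposited. The signs of single large changes did not depend on this choice, but the balance of higher against lower calls did.

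The arrays were not equally far from the untreated state. Treated replicate 2 had the highest signal of the 3 treated arrays for 73% of the genes called lower and for 261 of the 280 genes that were at least 4-fold lower. The median log2 change of the genes called lower was -1 on that array, against -1.56 and -1.58 on treated replicates 1 and 3. Among genes called higher the same medians were 1.41 on replicate 2, 1.70 on replicate 1 and 1.82 on replicate 3. Without treated replicate 2 the fit called 3242 genes (1238 higher and 2004 lower). The number of calls fell furthest on leaving out untreated replicate 1 (1806 genes), untreated replicate 3 (1724) or treated replicate 3 (1701). Marker genes of red pulp and marginal zone macrophages summed highest on replicate 1 of both groups, and the poly-A spike-in probe sets were lowest on the same 2 arrays (4.01 and 5.79, against 54.9 to 533 on the other 4). Fitting only replicates 2 and 3 left 1040 calls (681 higher and 359 lower). All 3038 genes kept the sign of their change in that fit. For the 2998 of them without overlap between the groups, that sign was fixed in advance. With replicate 1 of both groups set apart from the other 4 arrays as a block, 3330 genes were called. All 217 named genes that had been called stayed called in that fit. With array weights 3262 genes were called, and 216 of the 217 stayed called. The ratio of 3' to 5' probe sets, a measure of RNA quality, was 8.73 for Gapdh on treated replicate 1 and 4.58 to 5.59 on the other 5 arrays. For Actb it was 1.52 to 1.94 untreated and 1.39 to 1.46 treated, with no overlap. The part of RNA quality in the results was not tested.

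**Figure D1:**
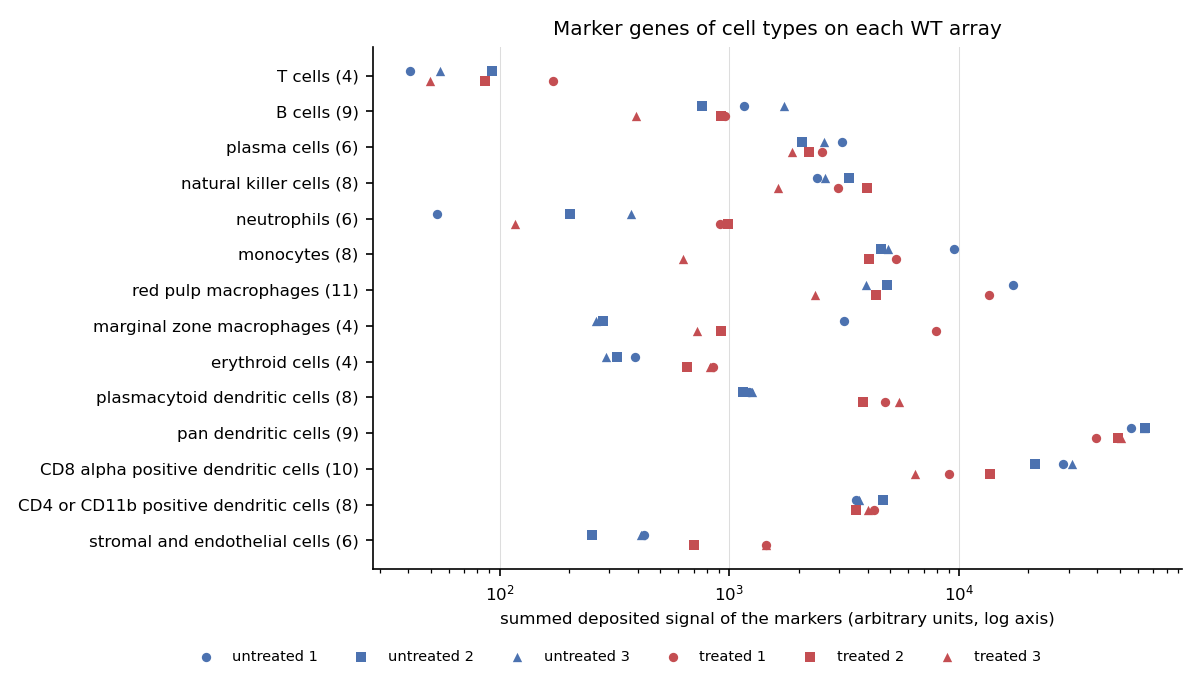
Summed deposited signal (log axis, arbitrary units) of the measured markers of 14 cell types, their number in parentheses, on the 3 untreated (blue) and 3 treated (red) WT arrays. Pan-DC markers gave the highest sums on all 6 arrays (39300 to 64600), red pulp macrophage markers were highest on replicate 1 of each group (17100 and 13500), and markers of CD8 alpha positive DCs were lower on all treated arrays (6430 to 13600) than on untreated ones (21400 to 31000).

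Pan-DC markers were bright on all 6 arrays, but their sum was lower on every treated array (39300 to 50800) than on any untreated one (56000 to 64600). Of 9 measured, 1 was called lower (Ciita, -1.59 ± 0.47, named after its value was seen) and 0 higher by limma (3 lower and 0 higher at an unadjusted p under 0.05). The class II gene H2-Ab1 did not overlap between the groups and was not called (-0.72 ± 0.31, adjusted p = 0.11). H2-Aa read 13636, 16790 and 18523 untreated and 11744, 9371 and 14779 treated (log2 change -0.46 ± 0.30, adjusted p = 0.29). Markers of other cells were measured as well. The 4 measured T cell markers summed to 40.7 to 92.4 untreated and 49.9 to 170 treated, and the 9 B cell markers to 760 to 1720 and 394 to 956. Natural killer cell markers were more abundant, with sums of 2400 to 3320 untreated and 1620 to 3980 treated. On the untreated arrays most of this was Klrd1 (2101, 3125 and 2231). Of the 10 measured markers of CD8 alpha positive DCs, 8 were called lower and 0 higher (limma; 1 was higher and 8 lower at an unadjusted p under 0.05). In RNA of bulk sorted cells, fewer cells of such a type and less of the RNA per cell cannot be told apart, and this holds for every fall described below.

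The largest rises outside the best-known genes were of genes with diverse functions. Pla1a, a secreted phospholipase that cleaves phosphatidylserine, read 20.3, 28.6 and 21.2 on the untreated arrays and 4427, 1308 and 2681 on the treated ones. No treated array came near the untreated level, and the rise was 64.1-fold (log2 change 6.00 ± 0.41, adjusted p = 1.1e-05). Htra1, a secreted serine protease, read 5.80, 2.30 and 2.10 untreated and 1267, 893 and 961 treated, a rise of 5.76 ± 0.28 (adjusted p = 2.4e-06). With an untreated signal under the offset, the 54-fold value of Htra1 is set by the added 16. Htra1 had also passed the filter on low values through the treated arrays alone, and so had to differ. Cnn3, an actin-binding calponin, rose from 88.4, 49.0 and 95.6 to 8487, 2726 and 3830 (49.1-fold), and its 5 other probe sets rose too, by 1.95 to 4.80. The enzyme gene Aldh1a2, which makes retinoic acid from retinal, rose 32.6-fold from 97.8, 148 and 65.9 to 5334, 2623 and 3725 (5.02 ± 0.36, adjusted p = 1.6e-05). The lowest treated array of Aldh1a2 was far above its highest untreated one.

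Other rises of this size included signalling and adhesion genes. Plk2, a polo-like kinase, rose 59.3-fold (5.89 ± 0.47), although a second probe set for it gave -0.22. Glipr2, a Golgi-associated protein, rose 58.5-fold and its other probe set gave 4.94. Gng4, a gamma subunit of heterotrimeric G proteins, rose 48-fold with -0.39 and 1.72 as the lowest and highest of its other probe sets. Slamf1, the homophilic lymphocyte receptor also called CD150, rose from 20.9, 25.1 and 24.5 to 1280, 1005 and 866 (26.7-fold, adjusted p = 6.0e-06), with 2.62 and 3.96 from its other probe sets. The heparan sulfate proteoglycan gene Agrn (30.7-fold, other probe set -0.14), the carbonic anhydrase gene Car13 (36-fold), the adhesion receptor gene Adgrg6 (24.6-fold) and Rragd, which encodes a small GTPase of the amino acid sensing route to mTOR (29.9-fold, other probe sets 0.09 and 0.98), were in the same range. Where probe sets of a gene disagreed, the brightest one is the one given. The mean of all probe sets gave smaller changes for several named genes, such as 2.30 for Gng4, 2.94 for Rragd, 1.16 for Nt5c3 and -1.02 for Satb1, and those 4 calls held.

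**Figure D2:**
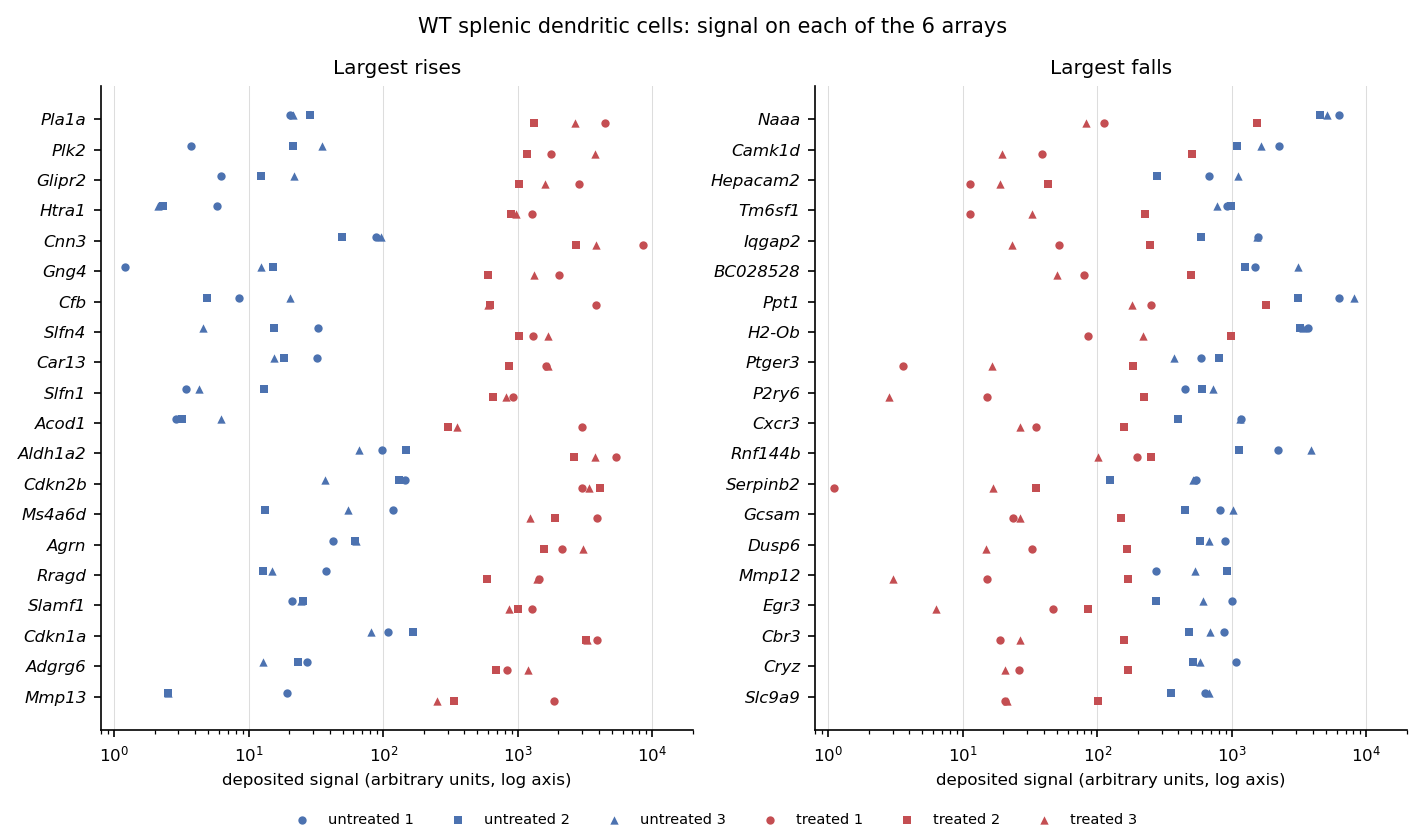
Deposited signal (log axis, arbitrary units) on each of the 3 untreated (blue) and 3 treated (red) arrays for the 20 largest rises and the 20 largest falls outside the best-known genes, symbols giving the replicate number. Groups do not overlap by the choice of genes, and treated replicate 2 (red squares) is the highest treated array for all 20 falls.

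Both inhibitors of cyclin-dependent kinases measured among the largest rises were near 3000 or above on every treated array. Cdkn1a (p21) rose from 108, 167 and 81.1 to 3872, 3221 and 3282 (26.6-fold, 4.73 ± 0.31, adjusted p = 1.1e-05, other probe set 3.42), and Cdkn2b (p15) from 146, 131 and 36.8 to 3009, 4073 and 3363 (32.2-fold, adjusted p = 3.3e-05). Cdkn1a is a target of p53, while more genes of its list, DNA repair and p53 targets, were called lower than higher. Of its 40 measured members 4 were called higher and 12 lower (median log2 change -0.71, against -0.15 for all genes), and with 1 array left out 2 to 4 were higher and 6 to 16 lower, fewest without untreated replicate 1. Gadd45g, a stress-induced growth regulator, rose 7.26-fold. The checkpoint kinase gene Chek2 fell from 251, 366 and 245 to 21.7, 65.9 and 26.7 (-2.55 ± 0.35, adjusted p = 8.5e-04), with no overlap between the groups, like most genes called. The uracil glycosylase gene Ung fell 3.74-fold (-1.90 ± 0.39), and Sesn1, a sestrin induced by p53 in other settings, fell 3.32-fold (-1.73 ± 0.37).

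Interferon-linked families that are less often described were mostly called higher. Of 47 measured members of the schlafen, PARP, p200, MS4A, Ly6 and related families, 36 were called higher and 0 lower, and their median log2 change was 1.59. Of the 36, 2 had passed the filter on low values through the treated arrays alone and so had to differ. At an unadjusted p under 0.05 of the same limma fit 40 members were higher and 1 lower, and with 1 array left out 29 to 37 members of this list were called higher and 0 or 1 lower. Slfn4 and Slfn1, schlafen genes linked to control of leukocyte growth, rose from 32.9, 15.5 and 4.6 to 1304, 1015 and 1684 and from 3.4, 13 and 4.30 to 927, 652 and 815. Both were called at 41.8-fold and 35.8-fold, Slfn1 with a second probe set at -0.52. Ifi204, a p200-family DNA sensor, rose 18.5-fold (4.21 ± 0.35). Helz2, a helicase coactivator, rose from 326, 393 and 251 to 3531, 2826 and 3783 (3.33 ± 0.29), and Znfx1, a helicase-like RNA sensor, from 154, 154 and 121 to 1617, 1073 and 1800 (3.22 ± 0.30). These last levels were tight within each group. Ms4a6d, a tetraspan-like membrane protein of myeloid cells, rose 32.3-fold, from 118, 13.2 and 54.7 to 3880, 1903 and 1235, with a range of 0.26 to 5.32 over its other probe sets.

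Motifs were searched in the 250 bases before the start site of 10318 of the 12791 tested genes with a RefSeq window (build GRCm38.p6), on both strands. The interferon-stimulated response element, written GAAANNGAAA, was found in 3.31% of all these promoters, in 6.5% of those of genes called higher and in 2.74% of those called lower. It was found in 11% of promoters of genes at least 4-fold higher (37 of 337), in 3.95% of those at least 4-fold lower (9 of 228) and in 7 of 39 promoters of the less-known families (17.9%). In the best-known genes it was found in 17 of 61 (27.9%). The kappa B site GGGANNTTCC was found in 1.47% of all promoters, 3.26% of those of genes at least 4-fold higher and 11.5% of the best-known genes. The AP-1 site TGANTCA was found in 6% of all promoters, 11.6% of those at least 4-fold higher and 10.5% of those at least 4-fold lower, and the TATA box TATAAA in 8.67%, 14.2% and 14.9%. Most genes called higher had neither the response element nor the kappa B site in this window. These are counts of letters, with no test, and say nothing of binding.

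The following 3 promoters are shown because they carry the element in genes beyond the best-known set, chosen after the values were seen. The letters run 5' to 3' along the gene up to the base before the start site, with capitals marking the match.
Ddx60 promoter: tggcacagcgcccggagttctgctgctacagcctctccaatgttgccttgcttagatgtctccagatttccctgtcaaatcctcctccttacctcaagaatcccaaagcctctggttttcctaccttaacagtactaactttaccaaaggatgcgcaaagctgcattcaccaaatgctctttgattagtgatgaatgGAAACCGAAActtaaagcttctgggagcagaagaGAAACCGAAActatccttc
Slfn5 promoter: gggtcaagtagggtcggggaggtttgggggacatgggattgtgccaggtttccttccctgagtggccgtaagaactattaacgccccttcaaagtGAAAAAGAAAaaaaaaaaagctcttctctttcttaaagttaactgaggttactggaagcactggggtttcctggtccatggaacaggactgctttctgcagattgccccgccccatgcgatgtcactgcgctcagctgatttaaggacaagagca
Serpinb9 promoter: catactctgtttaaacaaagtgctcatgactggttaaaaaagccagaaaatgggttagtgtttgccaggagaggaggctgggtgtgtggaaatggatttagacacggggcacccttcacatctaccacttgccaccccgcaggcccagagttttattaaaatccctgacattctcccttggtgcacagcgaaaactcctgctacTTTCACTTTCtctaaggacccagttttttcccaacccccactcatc
Ddx60, which encodes a helicase of antiviral RNA sensing, lies on chr8 (window chr8:61927837-61928086, plus strand) and holds matches starting 53 and 19 bases before the start site. It read 96.0, 146 and 80.6 untreated and 538, 456 and 1031 treated (5.39-fold, adjusted p = 0.0014). The schlafen gene Slfn5 (window chr11:82951852-82952101, plus strand, match at 155 bases) rose 4.58-fold, from 183, 176 and 232 to 1307, 812 and 812. Serpinb9, the intracellular inhibitor of granzyme B (window chr13:33004291-33004540, plus strand, match at 46 bases on the opposite strand), was already well expressed at 1073, 576 and 1161 and rose to 8049, 5115 and 7453 (7.41-fold, 2.89 ± 0.35, adjusted p = 3.3e-04). None of the 3 genes overlapped between the groups, which held for most genes called. The Serpinb9 and Znfx1 responses were smaller in aly DCs in a test of the genotype difference, which called 29 genes or 0.227% of all tested. Both genes had been named by the p-value of their WT change, on arrays that also enter that test.

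**Figure D3:**
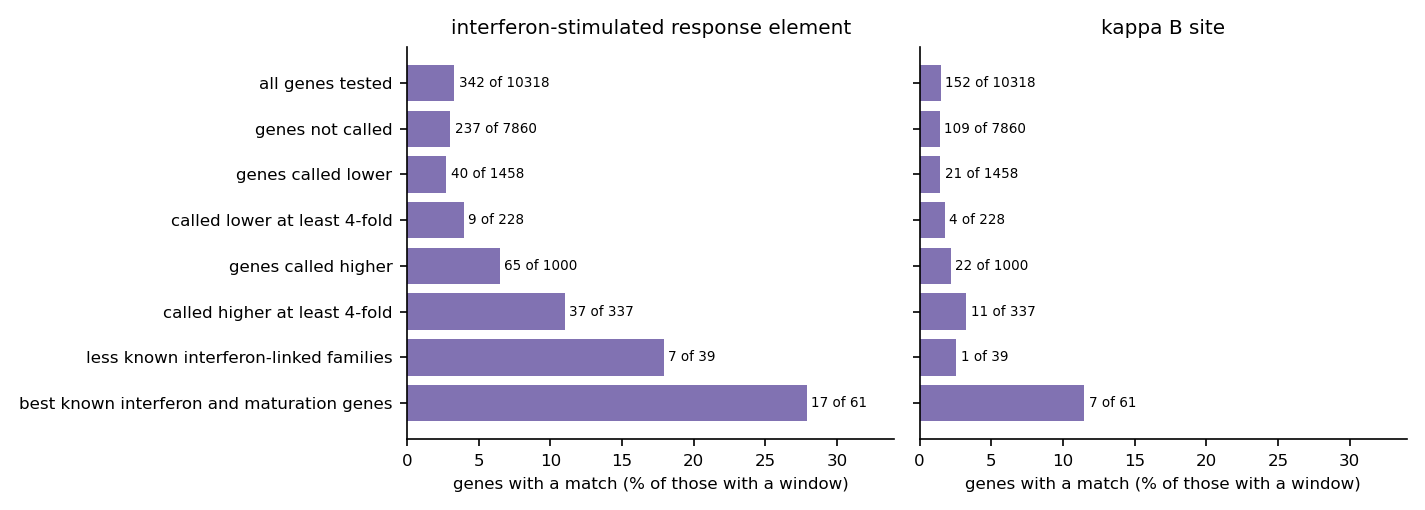
Share (%) of genes with at least 1 match to the interferon-stimulated response element or the kappa B site in the 250 bases before the start site, by call and for 2 gene lists, with the counts beside each bar. The share for the response element was 3.31% over all genes tested, 11% for genes at least 4-fold higher and 27.9% for the best-known genes.

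Enzymes of ubiquitin and ISG15 conjugation were called higher more often than lower. Of 40 measured ubiquitin ligases and deubiquitinases 14 were called higher and 5 lower, with a median of 0.56 and with 11 to 15 higher and 3 to 5 lower when 1 array was left out. Ube2l6 and Uba7, the conjugating and activating enzymes for ISG15, rose 18.7-fold (18.2, 18.8 and 25.7 to 815, 470 and 791) and 5.56-fold (503, 628 and 459 to 3211, 2610 and 3210). Herc6, the ISG15 ligase of the mouse, rose 10.5-fold (3.39 ± 0.30, adjusted p = 4.7e-05) with 2.78 to 3.51 from its other probe sets. The 3 steps of ISG15 transfer thus were all called higher. Tnip2, an A20-binding inhibitor of NF-kB signalling, rose 6.19-fold, and the mitochondrial ligase gene Marchf5 rose 4.66-fold from an untreated level of 1360, 1831 and 1584. The 5 members called lower were Marchf1, which removes class II and CD86 from the surface (-2.19), Itch (-1.67), Klhl6 (-2.07), Nedd4 (-1.69) and Asb2 (-1.95), named after their values were seen.

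Among 71 measured sequence-specific transcription factors 21 were called higher and 10 lower (15 to 19 and 8 to 11 when 1 array was left out, fewest higher without untreated replicate 3). Of the 21, 1 had passed the filter on low values through the treated arrays alone and so had to differ. Batf2, an AP-1 family factor induced by interferon, rose from 10.1, 20.4 and 21.7 to 977, 438 and 260 (15.1-fold, 3.92 ± 0.43). Vdr, the vitamin D receptor, rose from 2.10, 12.8 and 1.00 to 324, 204 and 190 (adjusted p = 6.5e-05), a 12-fold value set by the offset, and its other probe set gave 2.85. Nfil3, a bZIP repressor, rose 12.7-fold. Prdm1 (Blimp-1), a repressor known from plasma cells and tolerogenic DCs, was near 50 on every untreated array and rose to 396, 523 and 682 (8.28-fold, 3.05 ± 0.29, adjusted p = 8.8e-05). Of the other plasma cell markers Jchain was not called (-1.22 ± 0.80, adjusted p = 0.31) and Xbp1 was not called either (-0.59 ± 0.30, adjusted p = 0.18). Mxd1, an antagonist of Myc, rose 10.4-fold to 6222, 2361 and 5580. Spib, an Ets factor found in plasmacytoid DCs and B cells, rose from 183, 421 and 204 to 1705, 1947 and 3072, and it is 1 of 3 plasmacytoid markers called higher among 8. The others were Bst2 (2.66 ± 0.30, adjusted p = 2.3e-04), which interferon also induces, and Tcf4 (1.17 ± 0.29, adjusted p = 0.015), the latter with a call lost without untreated replicate 1 or 3 or treated replicate 1. Named after their values were seen, Ccr9 was called lower (-2.61 ± 0.52) and Siglech was not called (-0.81 ± 0.36). The 8 markers summed to 1150 to 1250 untreated and 3810 to 5450 treated, and the part of such cells in the Spib rise was not tested.

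Genes for factors that fell were led by Egr3, an immediate early zinc finger, from 1004, 274 and 611 to 46.4, 84.9 and 6.30 (-3.46 ± 0.57, adjusted p = 0.0024). Its relative Egr1, listed with growth factor response genes, fell from 1231, 1195 and 879 to 224, 487 and 73.4 (-2.32 ± 0.52), and Dusp6, the ERK phosphatase, fell 11.1-fold, from 888, 579 and 680 to 32.6, 165 and 14.8. These 3 genes are known outputs of ERK signalling. None overlapped between groups, which held for most genes called. Named after their values were seen, Bcl11a (-2.95), Mycl (-2.39) and Ahr (-2.13) were lower as well. Of 51 measured chromatin regulators 7 were called higher and 5 lower, near the background (5 to 10 and 2 to 6 when 1 array was left out, fewest lower without treated replicate 3). Arid5a, which stabilises cytokine messages, rose 6.75-fold, the remodeller gene Chd7 4.26-fold and the methyltransferase gene Kmt2a 2.48-fold. Satb1, a chromatin organiser, fell from 1869, 1292 and 977 to 329, 435 and 132 (-2.24 ± 0.43), and Smarca2, an ATPase of the BAF complex, fell 3.34-fold.

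**Figure D4:**
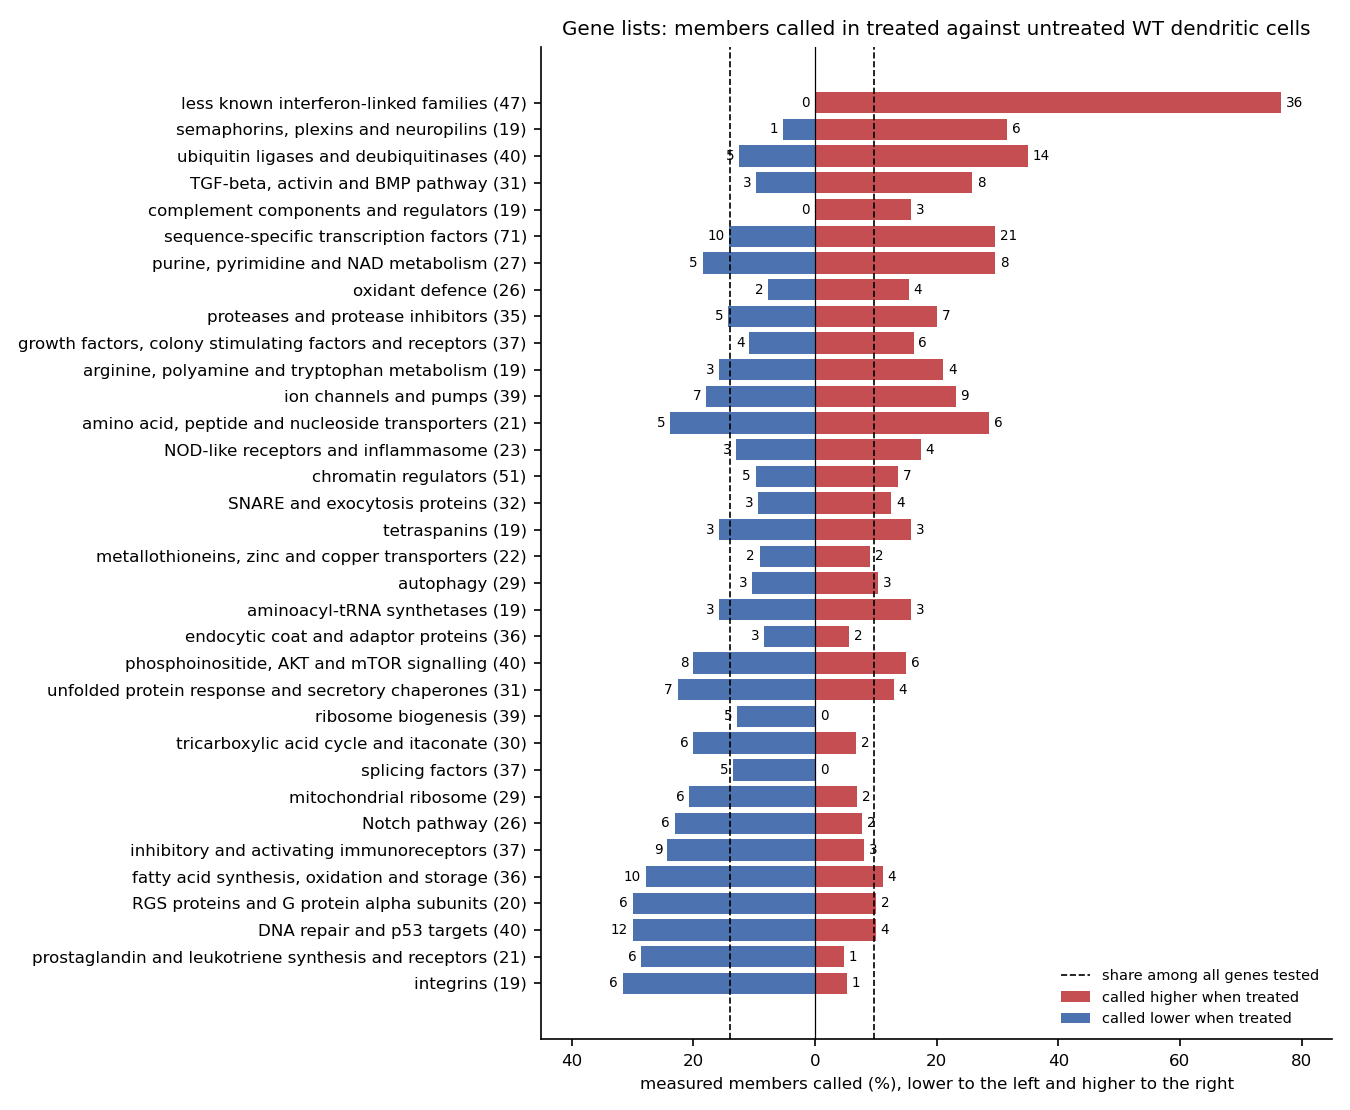
Percentage of measured members called higher (red, to the right) or lower (blue, to the left) in treated against untreated WT DCs for 34 gene lists, with the number measured in parentheses, the number called at the end of each bar, and dashed lines at the shares among all genes tested (9.71% and 14%). The less-known interferon-linked families stand far to the right (36 of 47), and of 19 integrins 1 was called higher and 6 lower.

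Guidance receptors were mostly called higher where they changed. Of 19 measured semaphorins, plexins and neuropilins 6 were called higher and 1 lower (median 0.43). Nrp2, a neuropilin that takes part in the migration of DCs to lymph nodes, rose from 8.60, 6.40 and 19.2 to 494, 689 and 548 (21.9-fold, 4.45 ± 0.30, adjusted p = 1.1e-05, other probe sets 1.68 to 3.44). Sema7a, a membrane-anchored semaphorin, rose 11.6-fold from 252, 403 and 282 to 3694, 2768 and 4958. Plxnd1, a plexin, rose 3.64-fold. The calls of Sema4c (2.99-fold) and Plxna1 (2.33-fold) were lost on leaving out untreated replicate 2 or 3 or treated replicate 1, and 3 to 6 members were called higher with 1 array left out. The member called lower was Nrp1 (-1.57, named after its value was seen), a call lost without untreated replicate 1 or 3 or treated replicate 1, with centring on the tested genes and with replicates 2 and 3 only.

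Of 19 measured integrin chains 1 was called higher and 6 lower, with a median of -0.80 (3 to 7 lower when 1 array was left out, fewest without untreated replicate 1). Itgal, the alpha chain of LFA-1, fell from 780, 661 and 775 to 253, 186 and 72.2 (-2.16 ± 0.40, adjusted p = 0.0041). Its beta chain Itgb2 read 7148, 10154 and 7846 untreated and 3492, 4721 and 1301 treated (-1.57 ± 0.44), a call that held only without treated replicate 1 or 2 among the single omissions. Itgae (CD103), which marks CD8 alpha positive DCs, fell 8.07-fold, with 205 on treated replicate 2 and 12.8 and 30.8 on the other treated arrays. Itgb8, whose protein activates latent TGF-beta, was the one chain called higher, from 1.6, 12 and 1.6 to 35.5, 66.7 and 85.7. It had passed the filter on low values through the treated arrays alone. Tetraspanins, which organise integrins in the membrane, were called higher and lower 3 times each among 19 (15.8% each, against 9.71% and 14% of all genes). Tspan3 rose 7.24-fold to 5682, 5269 and 7687, Cd9 fell 4.19-fold from 1151, 878 and 1433 to 188, 363 and 250, and Cd37 fell 3.72-fold.

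Regulators of G protein signalling split by member. Rgs1, known to be induced on activation, rose from 1389, 1314 and 1547 to 6031, 7170 and 8500 (5.02-fold, 2.33 ± 0.28, adjusted p = 3.2e-04). Rgs18 fell 8.33-fold (616, 744 and 949 to 27.2, 275 and 47.9), Rgs14 3.20-fold and Rgs10 2.72-fold. Rgs2, a bright gene of untreated DCs at 10477, 18461 and 12642, read 1199, 8745 and 2390 treated, and its call (-2.19 ± 0.59) was lost on leaving out untreated replicate 2 or 3 or treated replicate 1 or 3. Of the 20 measured RGS and G alpha genes 2 were called higher and 6 lower (10% and 30%, against 9.71% and 14% of all genes). With 1 array left out the counts were 1 to 4 and 3 to 6. Receptors coupled to these proteins were among the largest falls: Cxcr3, the receptor of the interferon-induced chemokines, fell 11.5-fold (1171, 395 and 1154 to 35.1, 157 and 26.6), and the UDP receptor gene P2ry6 fell 11.5-fold (450, 596 and 722 to 15.0, 224 and 2.80). In both genes treated replicate 2 was well above the other treated arrays and still below the untreated ones. The P2ry6 call was lost with an offset of 1 and with replicates 2 and 3 only.

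Genes of eicosanoid synthesis and sensing were mostly called lower where they changed. Of 21 measured 6 were called lower and 1 higher (median -0.43, 3 to 8 lower when 1 array was left out, fewest without untreated replicate 3). Alox5ap, the activating protein needed for leukotriene synthesis, fell from 8135, 7959 and 7186 to 229, 3085 and 657 (9.71-fold, -3.28 ± 0.70, adjusted p = 0.0083). The receptors of prostaglandin E2 went different ways. Ptger4 (EP4) rose from 928, 1210 and 1129 to 7073, 6189 and 8897 (6.66-fold, 2.74 ± 0.28, adjusted p = 1.4e-04, other probe set 2.53). Ptger3 (EP3) fell from 586, 801 and 372 to 3.60, 183 and 16.5 (11.5-fold, other probe set -0.23), and Ptger2 (EP2) fell from 250, 103 and 296 to 63.7, 54.5 and 33.1, a call lost without untreated replicate 3. The Ptger3 call was lost with an offset of 1. The leukotriene receptor gene Cysltr1 fell 3.93-fold. The inducible cyclooxygenase gene Ptgs2 read 576, 309 and 316 untreated and 854, 1028 and 385 treated and was not called (0.84 ± 0.41, adjusted p = 0.16, named after its value was seen).

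Genes of the tricarboxylic acid cycle and linked enzymes were called lower at a share of 20%, near the 14% of all genes tested. Acod1, which makes itaconate from the tricarboxylic acid cycle intermediate cis-aconitate, rose from 2.90, 3.20 and 6.20 to 3010, 301 and 354. Treated replicate 1 stood far above the other treated arrays, and the 35.3-fold value (5.14 ± 0.69, adjusted p = 7.3e-04) depends on the offset. Acod1 had passed the filter through the treated arrays alone. In the list of 30 genes of the cycle and linked enzymes, Acod1 and Pdk1 among them, 2 were called higher and 6 lower, with a median of -0.52. With 1 array left out 4 to 11 were called lower, fewest without untreated replicate 3, and 3 with all 12 arrays or with replicates 2 and 3 only. Idh2 fell from 1750, 1433 and 876 to 84.0, 550 and 67.4 (7.85-fold, -2.97 ± 0.62), Idh3a 3.17-fold (1312, 1064 and 1387 to 375, 483 and 307) and Mdh1 2.85-fold. Pdk1, the kinase that restrains pyruvate dehydrogenase, fell 5.99-fold, from 684, 387 and 468 to 69.1, 116 and 40.6 (-2.58 ± 0.37, adjusted p = 0.0010). None of these 4 falls overlapped between the groups, which held for 2998 of the 3038 genes called. The Idh2 call was lost with replicates 2 and 3 only, and the Idh3a call with all 12 arrays in the fit.

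Lipid genes moved in the same mixed way, 4 of 36 higher and 10 lower (median -0.41, 7 to 10 lower when 1 array was left out). Fabp5, a fatty acid carrier, was bright in treated DCs at 13890, 14005 and 17740, up from 2260, 1751 and 1564 (8.17-fold, 3.03 ± 0.29, adjusted p = 7.7e-05, other probe set 4.49). The long-chain dehydrogenase gene Acadl rose 4.59-fold and the triglyceride lipase gene Pnpla2 3.13-fold, with other probe sets at 0.45 and 0.07. Lipa, the lysosomal acid lipase, fell from 1041, 1087 and 742 to 123, 412 and 112 (-2.29 ± 0.44), and the thiolase gene Acaa2 fell 3.14-fold. Other lysosomal hydrolases were among the largest falls. Naaa, which cleaves N-acylethanolamines and is also a marker of CD8 alpha positive DCs, fell from 6220, 4542 and 5112 to 112, 1538 and 82.0 (19.6-fold, -4.29 ± 0.82, adjusted p = 0.0051), and Ppt1, a palmitoyl thioesterase, from 6267, 3119 and 8112 to 248, 1801 and 181 (11.9-fold). The calls of Naaa and Ppt1 were lost with replicates 2 and 3 only. Slc9a9, a sodium-proton exchanger of endosomes, fell 10.1-fold.

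Nucleotide genes were called in both directions, with 2 phosphorylases among the rises. Of 27 measured 8 were called higher and 5 lower (6 to 8 and 3 to 7 when 1 array was left out). Upp1, uridine phosphorylase, rose from 23.4, 24.0 and 18.8 to 523, 362 and 419 (11.7-fold, 3.55 ± 0.28, adjusted p = 2.3e-05), and Pnp, purine nucleoside phosphorylase, rose 4.71-fold to 9916, 7233 and 10954. Cmpk2, a mitochondrial UMP-CMP kinase induced by interferon, rose 11.4-fold, and the pyrimidine nucleotidase gene Nt5c3 rose 5.91-fold with its other probe set at -0.25. Umps, the last enzymatic step of UMP synthesis, fell from 605, 477 and 582 to 133, 193 and 64.4 (-2.06 ± 0.36). In the neighbouring list of arginine and tryptophan metabolism, with 4 of 19 higher and 3 lower (2 to 3 of each when 1 array was left out), Arg2 rose from 10.4, 1.10 and 3.90 to 110, 65.0 and 182 (through the filter by the treated arrays alone) and Gch1, which starts tetrahydrobiopterin synthesis, rose 3.53-fold. Qdpr, which recycles the same cofactor, fell 2.60-fold, and the kynurenine pathway genes Haao and Kmo fell 4.09-fold and 2.35-fold, Kmo with a call lost without untreated replicate 1 or 3 or treated replicate 1.

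Transporters were called in both directions, 6 of 21 higher and 5 lower (2 to 6 and 3 to 6 when 1 array was left out, fewest higher without untreated replicate 3). The mitochondrial glutamate carrier gene Slc25a22 (4.25-fold) and the lysosomal peptide transporter gene Slc15a3 (4.66-fold, 395, 712 and 277 to 3798, 1513 and 1506) rose. The glutamine transporter gene Slc38a1 fell from 1371, 1531 and 1480 to 203, 541 and 127 (-2.51 ± 0.44, adjusted p = 0.0033), Slc43a2, a carrier of neutral amino acids, fell 7.06-fold and Slc38a9, the lysosomal arginine sensor, 2.97-fold. Among 19 aminoacyl-tRNA synthetases 3 were higher and 3 lower (0 lower without untreated replicate 1 or treated replicate 3), led by Wars, known to be induced by interferon, which rose 4.48-fold (353, 527 and 333 to 2436, 1514 and 1658). Mt2 and Mt1, metallothioneins that bind zinc, rose from 36.0, 34.9 and 23.1 to 1175, 545 and 293 (12.6-fold) and from 205, 89.6 and 120 to 1311, 696 and 356 (4.80-fold). With 2 members called higher and 2 lower of 22 (0 to 1 lower when 1 array was left out), the share of calls in that list was below the background.

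Stress and translation genes had medians below that of all genes. In the unfolded protein response list 4 of 31 were higher and 7 lower (median -0.59), with 3 to 5 and 2 to 5 when 1 array was left out and 0 lower with replicates 2 and 3 only. Ppp1r15a (GADD34), the phosphatase subunit that reverses eIF2 alpha phosphorylation, rose evenly from 98.5, 86.5 and 86.9 to 726, 681 and 761 (6.93-fold, 2.79 ± 0.26, adjusted p = 7.7e-05), Edem1 rose 2.87-fold, and the Atf4 call (2.37-fold) was lost without untreated replicate 1 and with the mean of its probe sets. The disulfide isomerase gene Pdia5 fell from 1652, 507 and 1665 to 83.3, 326 and 68.5 (-3 ± 0.58), and the chaperone cofactor Sdf2l1 3.31-fold, a call lost without untreated replicate 3. Ribosome biogenesis genes had a median of -0.51 with 5 of 39 called lower and 0 higher by limma (12 and 1 at an unadjusted p under 0.05), a share below the background for lower genes, and 0 to 7 when 1 array was left out. All 5, among them Polr1a (3.16-fold) and Fbl (2.51-fold), lost their call on at least 1 such omission. Splicing factors had 5 of 37 lower and 0 higher by limma (7 and 1 at an unadjusted p under 0.05), a lower share near the background that fell to 1 gene without untreated replicate 3, and Prpf19 fell from 4387, 2951 and 4395 to 1466, 1680 and 728 (-1.65 ± 0.36). Mitochondrial ribosomal proteins had 2 higher and 6 lower of 29 and a median of -0.61, and 0 to 8 were called lower when 1 array was left out.

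Redox and autophagy genes were near the background as lists, 4 of 26 higher and 2 lower, and 3 of 29 higher and 3 lower. With 1 array left out 2 to 5 redox genes were higher and 1 to 6 lower, and 2 to 3 autophagy genes higher and 1 to 3 lower, fewest without untreated replicate 3 but for the higher autophagy genes. Keap1, the sensor that restrains NRF2, rose from 347, 231 and 195 to 1362, 833 and 1059 (4.05-fold, 2.02 ± 0.32, adjusted p = 0.0020), and Txnrd1, thioredoxin reductase, rose 2.86-fold, with other probe sets at -0.21 and 0.55 and a call lost with the mean of all probe sets (0.62). Catalase (Cat) fell from 2805, 2502 and 1090 to 616, 386 and 483 (-1.98 ± 0.38). Subunits of the phagocyte oxidase diverged, Ncf1 at 2.36-fold higher and Ncf4 at 2.61-fold lower, both with calls lost without untreated replicate 3 or treated replicate 3. The autophagy receptor gene Sqstm1 (p62) rose 3.08-fold, from 581, 551 and 747 to 2126, 1507 and 2296. Atg10, an E2-like enzyme of the autophagy conjugation system, fell 2.57-fold.

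Vesicle traffic lists were below or near the background, while some members changed severalfold. Ehd1, an ATPase of endocytic recycling, rose from 418, 360 and 346 to 4402, 2717 and 1970 (7.41-fold, 2.89 ± 0.33, adjusted p = 2.6e-04, other probe sets 3.62 to 3.93), in a list with 2 of 36 higher and 3 lower (1 to 3 and 0 to 4 when 1 array was left out). Of 32 SNARE and exocytosis genes 4 were higher and 3 lower (3 to 4 and 1 to 3). Stx11, a syntaxin of cytotoxic granule release, rose 4.46-fold (199, 210 and 136 to 992, 913 and 683), Stxbp3 3.59-fold (1844, 1351 and 1569 to 6401, 5233 and 5531) and Vti1a 3.50-fold. Bet1, a SNARE of transport from the endoplasmic reticulum, fell 3.22-fold, and Vamp7 3.27-fold with a call lost without untreated replicate 3. H2-Ob, which restrains the class II peptide exchange factor, was among the largest falls, from 3663, 3222 and 3352 to 85.8, 980 and 218 (11.9-fold, -3.57 ± 0.64, adjusted p = 0.0037).

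Proteases and their inhibitors were raised more often than the background, 7 of 35 higher and 5 lower (7 to 8 and 3 to 4 when 1 array was left out). The collagenase gene Mmp13 rose from 19.3, 2.50 and 2.50 to 1858, 338 and 250 (24.4-fold, 4.61 ± 0.62), with treated replicate 1 far above the others, whereas Mmp12, macrophage elastase, fell from 275, 915 and 534 to 15.2, 170 and 3.00 (11-fold). The Mmp12 call was lost with an offset of 1. Among serpins Serpinb9 rose, as given above, and Serpinb2 (PAI-2) fell from 536, 123 and 517 to 1.10, 34.7 and 16.7 (-3.50 ± 0.55, adjusted p = 0.0019). Cst7, the inhibitor of cathepsin activation in granules, rose 5.12-fold, and Adam9, a sheddase, 3.17-fold. Granzymes moved the same way as Serpinb9: Gzma read 41.5, 7.30 and 26.8 untreated and 1349, 484 and 84.1 treated (3.41 ± 0.76, adjusted p = 0.0098), and Gzmb, named after its value was seen, 2.20, 3.20 and 3.00 and then 746, 445 and 122. Both are natural killer cell markers, and Gzmb had passed the filter on low values through the treated arrays alone. Of the 8 measured markers of these cells, 2 were called higher, the granzymes, and 0 lower by limma (4 higher and 1 lower at an unadjusted p under 0.05). The median of the 8 was 0.68, and 4 did not overlap on the higher side, Gzmb among them. Over all 12791 genes tested, 2048 did not overlap on that side. Klrk1 read 119, 79.9 and 235 untreated and 247, 339 and 327 treated (1.10 ± 0.37, adjusted p = 0.053), and it passed the threshold in 10 of 22 alternatives. Klrd1 was not called (-1.37 ± 0.58, adjusted p = 0.11). The part of natural killer cells in the granzyme rise was not tested.

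**Figure D5:**
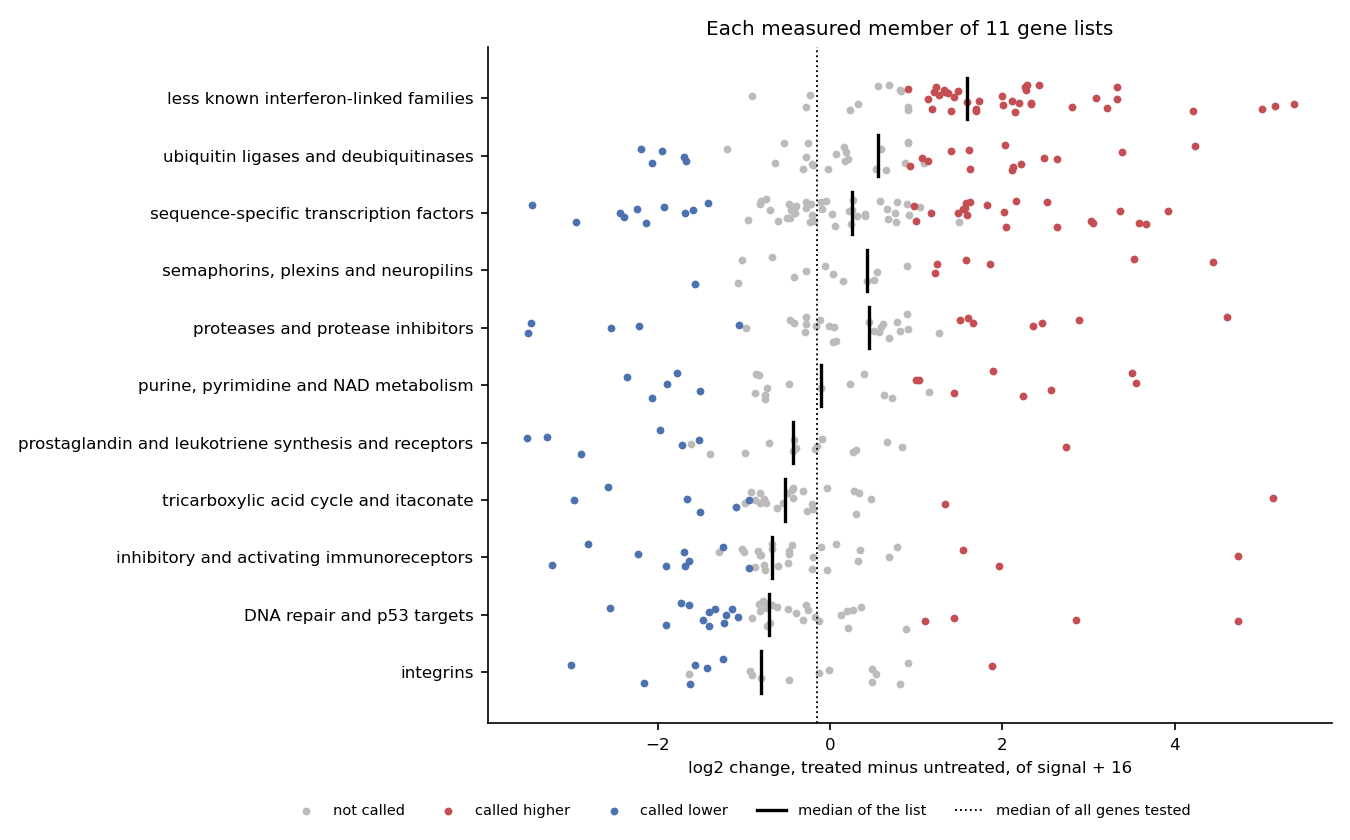
Log2 change (treated minus untreated, of the signal plus 16) of each measured member of 11 gene lists, red where called higher, blue where called lower and grey where not called, with a black bar at the median of the list and a dotted line at the median of all genes (-0.15). List medians run from 1.59 for the less-known interferon-linked families to -0.80 for integrins. Every list shown but the less-known interferon-linked families holds members called in both directions.

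Innate effector genes included complement and cell death genes. Cfb, factor B of the alternative pathway, rose from 8.40, 4.90 and 20.1 to 3791, 621 and 595 (43.2-fold, 5.43 ± 0.61, adjusted p = 2.2e-04). Of 19 measured complement genes, 4 were higher and 2 lower at an unadjusted p under 0.05 of the limma fit. Cfb was 1 of 3 called higher (15.8%, against 9.71% of all genes), with 0 called lower. The calls of the other two, Hc (complement C5) and Serping1, were lost on leaving out single arrays (untreated replicate 2 among others), and 1 to 4 members were called higher then. Casp4, the sensor of cytosolic LPS in mice, rose from 187, 394 and 275 to 2495, 3544 and 3288 (10.7-fold, 3.42 ± 0.33, adjusted p = 8.9e-05). Gsdmd, the pore former it cleaves, rose 3.27-fold (632, 549 and 585 to 2440, 1431 and 2158), and Mlkl, the effector of necroptosis, rose 7.82-fold to 269, 150 and 127. P2rx7, the ATP channel that triggers the NLRP3 inflammasome, fell 3.07-fold, and Txnip 2.70-fold. Nlrp3 and Casp1 themselves were not called (-0.60 ± 0.33 and 0.34 ± 0.34, adjusted p = 0.21 and 0.50, named after their values were seen). The list of NOD-like receptor and inflammasome genes had 4 of 23 called higher and 3 lower (17.4% and 13%, against 9.71% and 14% of all genes). Its median was -0.27.

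Immunoreceptors, with Slamf1 among them, had 3 of 37 called higher and 9 lower with a median of -0.67 (2 to 3 and 5 to 12 when 1 array was left out). Havcr2 (TIM-3), an inhibitory receptor, fell from 1715, 1256 and 2679 to 45.7, 505 and 208 (9.38-fold, -3.23 ± 0.63, adjusted p = 0.0057). Treml4, a receptor for dying cells, fell 7.02-fold, and Cd200r1, the receptor of CD200, fell 3.10-fold from 66.3, 55.1 and 66.7 to 4, 26.7 and 3. Pirb, an inhibitory receptor for class I molecules, rose in contrast, from 636, 703 and 503 to 2103, 3052 and 2192 (3.89-fold, 1.96 ± 0.29, adjusted p = 0.0014). Treml4 is also a red pulp macrophage marker, and the sums of that marker list were 3940 to 17100 untreated and 2360 to 13500 treated.

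Notch, TGF-beta and growth factor genes were called in both directions. Dll4, a Notch ligand that steers T helper cells, rose from 19.9, 34.4 and 57.0 to 357, 604 and 723 (10.9-fold, 3.45 ± 0.36, adjusted p = 1.5e-04, other probe set 4.13). The Notch target gene Hes1 fell from 318, 245 and 245 to 41.4, 113 and 14.2 (-2.22 ± 0.46), Rbpj, the nuclear effector of the pathway, fell 3.00-fold, and the receptor gene Notch4 4.98-fold. In all 2 of 26 Notch genes were called higher and 6 lower (7.69% and 23.1%, against 9.71% and 14% of all genes). With 1 array left out 3 to 5 of them were called lower. In the TGF-beta list 8 of 31 were called higher and 3 lower. Of the 8, 2 had passed the filter on low values through the treated arrays alone and so had to differ. Only 2 to 5 members of this list were called higher with 1 array left out, fewest without untreated replicate 3. Its 3 falls were the receptor gene Tgfbr1 (2.75-fold, 809, 833 and 784 to 257, 394 and 224), the secreted target Tgfbi (6.05-fold, 1948, 2802 and 2706 to 202, 1209 and 240) and Tgfb1 itself, a call lost without untreated replicate 1 and with the mean of its probe sets. Inhba, the activin A chain, rose from 2.70, 6.00 and 2.60 to 25.6, 35.9 and 31.9 through the treated arrays alone. The insulin receptor gene Insr fell 3.97-fold (368, 421 and 237 to 66.8, 112 and 48.3), with other probe sets at -0.18 and 0.38 and -0.80 over their mean, and Spred1, an inhibitor of Ras signalling, rose 5.50-fold, with -0.34 to 2.44 over its other probe sets. Kdr, a VEGF receptor kept here as an endothelial marker, rose from 92.7, 61.9 and 96.2 to 1356, 545 and 1408 (10.5-fold), whereas the endothelial marker Vwf fell (-2.10 ± 0.51, adjusted p = 0.015) and Pecam1 was not called (-1.02 ± 0.49, adjusted p = 0.16). The Vwf call was lost without untreated replicate 1 or 3 or treated replicate 3.

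Of 40 phosphoinositide, AKT and mTOR genes 6 were higher and 8 lower (15% and 20%, against 9.71% and 14% of all genes). They were led by Pik3r5, a regulatory subunit of PI3K gamma, which rose 4.94-fold (457, 554 and 313 to 1985, 2150 and 2457), and Sgk1, a kinase related to AKT, which fell 5.62-fold (1044, 613 and 1073 to 86.9, 302 and 109). With 1 array left out 2 to 10 of that list were called lower, fewest without treated replicate 3. With replicates 2 and 3 only, 1 was called higher and 1 lower. Of 39 ion channels and pumps 9 were higher and 7 lower (23.1% and 17.9%). With 1 array left out the counts were 6 to 10 and 3 to 9, fewest lower without untreated replicate 1. Cacna1d, a voltage-gated calcium channel, rose 4.50-fold from low signals (25.0, 13.7 and 9.5 to 114, 104 and 165). Clic4, an intracellular chloride channel protein, rose 3.17-fold to 11369, 9012 and 9789, and the lysosomal chloride exchanger gene Clcn7 3.85-fold. The oxidant-gated calcium channel gene Trpm2 fell 5.93-fold (1141, 544 and 828 to 170, 190 and 52.4) and the calcium-activated potassium channel gene Kcnn4 7.88-fold (433, 241 and 419 to 24.6, 102 and 5.40).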

How the data were processed

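Splenic DC RNA, amplified in 2 rounds, was read on Affymetrix mouse arrays. The deposited values are linear signal intensity per probe set, which the authors scaled so that the trimmed mean is 150 on every array. Which software and background correction they used is not given in the sources used here, and presence calls were not used. Of 45101 probe sets, 34945 carried 1 gene symbol. A gene was tested through its brightest probe set if it exceeded the 40th percentile on at least 3 of the 6 WT arrays, which left 12791 genes. Of these, 136 passed on the 3 treated arrays alone (92 called higher) and 98 on the 3 untreated arrays alone (53 called lower), and such genes had to differ. log2 of the deposited intensity plus 16 was tested with limma 3.58.1 (R 4.3.3) on the 6 WT arrays, with Benjamini-Hochberg adjustment over all genes. A gene is called where the adjusted p is under 0.05. The genotype difference was fitted on all 12 arrays. The pipeline was tested on simulated data.

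Named genes are the 20 largest rises and 20 largest falls without overlap, with a mean of at least 100 in the higher group and outside the best-known list, up to 5 called members with the smallest p of each of 35 functional lists (1 of which is not reported here), and the 3 brightest members of each of 14 marker lists. Members, lists and comparisons were chosen with earlier results of these data known. Alternatives changed the offset, filter, scaling, probe set choice, arrays and model. Array number limits the precision, and the median standard error of a log2 change was 0.33.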

Additional observations from a re-analysis of the deposited data

Results flagged for a closer look

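The response of 9 named genes differed between genotypes in an interaction test over all 12 arrays (limma with Benjamini-Hochberg adjustment), aly mice having been treated in the same way. Over all genes 29 of 12791 (0.227%) were called in that test. Each difference is the log2 response in aly minus that in WT. It was -3.82 for Pla1a (adjusted p = 0.040), -3.71 for Glipr2 (0.014), -3.92 for Htra1 (0.011), -3.30 for Slfn1 (0.040) and -3.47 for Rragd (0.040). It was -2.61 for Serpinb9 (0.049), -3.33 for Znfx1 (0.024), -2.74 for Ube2l6 (0.046) and -3.92 for Prdm1 (0.046). These 9 genes had been named by the size or p-value of their WT change, and the same WT arrays enter this test. That choice by itself favours a smaller response in aly. The responses in aly were 2.19 for Pla1a, 2.16 for Glipr2, 1.83 for Htra1, 1.86 for Slfn1, 1.43 for Rragd and 1.49 for Ube2l6, all smaller than in WT. They were 0.28 for Serpinb9, -0.11 for Znfx1 and -0.87 for Prdm1. Leaving out aly treated replicate 1 raised the number of genes called to 121, and all 9 were among them. Further named genes were called in that limma fit, so the 9 depend on the arrays used. Examples are Agrn (-3.34, adjusted p = 0.0048), Slamf1 (-3.38, 0.0048), Cdkn1a (-2.73, 0.032) and, with a positive difference, Pdk1 (2.92, 0.017). The aly responses of the 9 genes then ran from -0.15 (Prdm1) to 2.14 (Glipr2), and the differences from -4.25 (Pla1a) to -2.61 (Serpinb9). An aly array was known from earlier work on these data to hold degraded RNA. The part of RNA quality in the aly responses was not tested.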

How the results depend on the processing

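The 3038 calls (1242 higher, 1796 lower) fell to 1802 with an offset of 1 (912 lower), to 1618 with all 12 arrays in the fit (803 higher, 815 lower) and to 1040 with replicates 2 and 3 only (681 higher, 359 lower). Centring on the tested genes, chosen after seeing the data, left 1129 lower. With 1 array left out, the calls ranged from 1701 to 3242, the higher ones from 823 to 1238 and the lower ones from 862 to 2004. The genotype difference went from 29 to 121 genes without aly treated replicate 1. With all arrays but aly treated replicate 1 in the fit, 3051 genes were called (1234 higher, 1817 lower). The cause of these changes in the number of calls was not tested. With the replicate block 3343 genes were called (1347 higher, 1996 lower). Same-numbered arrays deviated together with correlations of 0.31, 0.14 and 0.06, and treated replicate 3 correlated more with untreated replicate 2 (0.10), so the numbers were not taken as pairs. Of 217 named called genes 115 kept their call under every alternative run, and none of the 217 changed sign. For genes without overlap between the groups, the sign is fixed in advance in any fit to fewer of the same arrays.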
